A study of Mus musculus with 3 samples.

Results

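Of 8075 peaks called for the retinoic acid receptor beta (RARβ) in the mouse caudate putamen, 325 (4.02%, Wilson 95% interval 3.62 to 4.48) lay more than 100 kb from any peak of histone H3 trimethylated at lysine 4 (H3K4me3). They were chosen by that distance alone, measured between the nearest edges of the peaks on the same chromosome, and are called isolated peaks here. Chromatin immunoprecipitation followed by sequencing was done on dorsal striatum (caudate putamen) taken from male wild type mice of mixed strain C57BL/6J x 129SvEms/j. The labels give no age and do not say how many animals gave each library. There was 1 library with an antibody against RARβ and 1 with an antibody against H3K4me3, so no value below has a replicate error and no test between groups of peaks was made. An anti-GFP library of the same tissue was not analysed here as a sample, and whether it is the control library behind the authors' fold enrichments, scores and false discovery rates is not given in the sources used here. Intervals cover counting error only, and peaks are not independent replicates.

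RARβ belongs to the nuclear receptors. Paired with a retinoid X receptor, it binds DNA at direct repeats of a short half-site and turns genes on or off according to the level of retinoic acid. It is the retinoic acid receptor best known from the striatum. H3K4me3 marks the start sites of active genes, whereas receptor sites far from promoters can lie in enhancers, which as a rule carry less of this mark. An isolated peak is therefore one with no promoter mark, at this list's sensitivity, over a long stretch on either side. The deposited lists pair no peak with a gene, so peaks are named by position in build mm9, and the tissue could not be checked against marker genes. Whether a peak lies in an exon, an intron or between genes is not stated, and no sequence of that build was used here.

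The RARβ library had 2237580 tags after redundant tags were removed, and 4.55% of them lay in peaks. At this depth the smallest peaks in the list had 7 tags. The H3K4me3 library had 47461843 filtered tags.

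The distances of the 325 isolated peaks from the nearest H3K4me3 peak ran from 100365 to 1813267 bp, with a median of 193.1 kb. There were 168 peaks between 100 and 200 kb, 117 between 200 and 500 kb, and 40 farther away than 500 kb. The farthest peak lay on chromosome 6 at 75358892 to 75359419, with 7 tags over 528 bp. A peak of 9 tags on chromosome 16 (82712503 to 82713021) came next. It was followed by one of 14 tags on chromosome 15 (47161592 to 47162544) and one of 7 tags on chromosome X (32103966 to 32104331). All 4 of these were small, with tag numbers under the 15 used below to mark the stronger peaks. The next in distance is one of the peaks with most tags, on chromosome 2. The 5 peaks just past the limit lay 100365 to 101734 bp away and had 7, 7, 8, 19 and 8 tags. The 5 peaks that just missed it, at 98080 to 99834 bp, had 9, 7, 7, 7 and 11 tags. The limit thus divides peaks of similar size.

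Most isolated peaks were small and narrow. Their median tag number was 9, with quartiles of 7 and 12, and their median width was 583 bp (order-statistic 95% interval 563 to 616), with quartiles of 490 and 692 bp. A tag number of 7, the fewest in the list, was found in 93 of them (28.6%, Wilson 95% interval 24.0 to 33.8), against a background of 21.8% over all RARβ peaks. The share was 29.1% at 5 to 100 kb, 31.9% outside H3K4me3 within 5 kb and 17.5% in overlapping peaks, so the isolated peaks stood close to the other peaks outside H3K4me3. Peaks 5 to 100 kb from H3K4me3 also had a median of 9 tags, with a median width of 617 bp. Peaks that overlapped H3K4me3 had a median of 10 tags over 673 bp. The highest 10% of isolated peaks began at 18 tags, and that of overlapping peaks at 22 tags. Among the isolated peaks the median tag number was 9 at 100 to 200 kb, 9 at 200 to 500 kb and 8 beyond 500 kb.

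Tags divided by width gives a first view of the pileup shape. The isolated peaks had a median of 15.87 tags per kb (order-statistic 95% interval 15.18 to 16.71), against 15.08 at 5 to 100 kb, 15.03 just outside H3K4me3 within 5 kb, and 15.3 in overlapping peaks. The interval of the isolated median includes the value in overlapping peaks. It lies above the other 2 values but overlaps their own intervals, which were 14.79 to 15.33 and 14.68 to 15.3. Single isolated peaks spread more widely, with quartiles of 13.44 and 19.64. Fold enrichment, the authors' ratio of summit height, in stacked tags, to a local background, had a median of 22.99 in the isolated peaks (order-statistic 95% interval 22.53 to 23.21), 21.07 at 5 to 100 kb, 20.43 outside H3K4me3 within 5 kb, and 19.35 both in overlapping peaks and over all RARβ peaks. Its quartiles were 17.3 and 27.08 in the isolated peaks, and 15.33 and 27.08 over all. At the genome-wide background level described below, 1 stacked tag is worth a fold of 3.87, and the class medians differed by less than that. Where tag numbers were matched, the isolated peaks with 7 tags had a median width of 512 bp, against 545.5 bp at 5 to 100 kb and 546 bp in overlapping peaks with 7 tags. With 8 tags the 3 medians were 563, 576.5 and 589 bp, and with 9 to 14 tags 621, 668 and 693.5 bp. With 15 or more tags the isolated peaks were wider than those at 5 to 100 kb, at 904 against 880.5 bp, and overlapping peaks had 1016 bp.

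**Figure D1:**
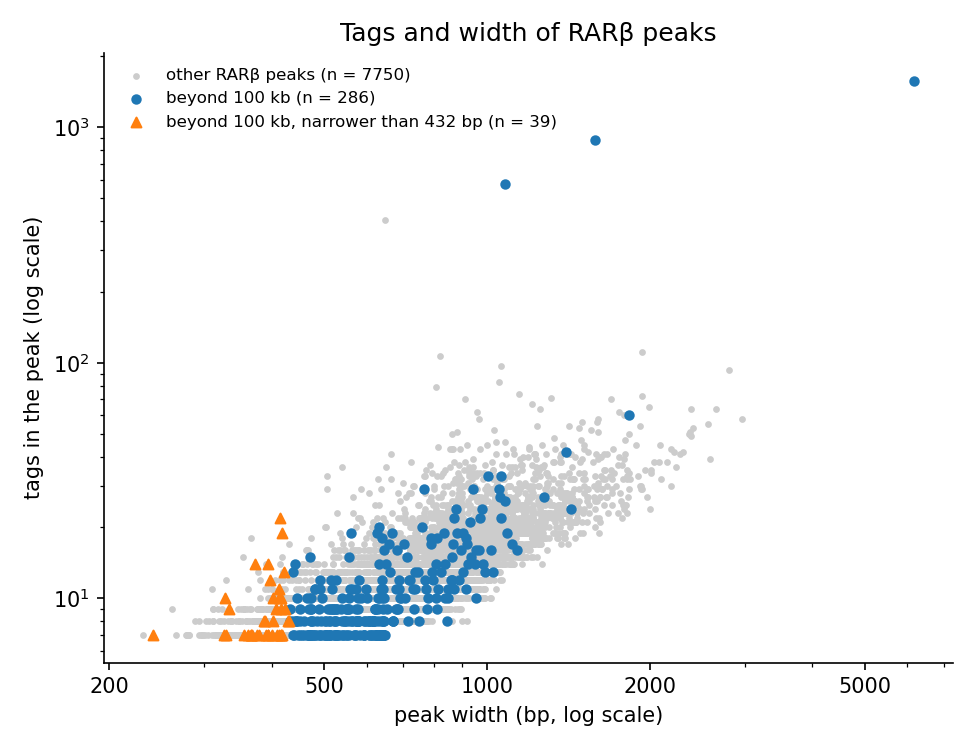
Each point is 1 RARβ peak, with its width in bp on the x axis and its tags on the y axis, both on log scales; blue and orange points are the isolated peaks, and grey points all others. Most isolated peaks lie within the grey cloud, 3 blue points stand above it at 573 to 1577 tags, and the 39 orange triangles mark the peaks narrower than 432 bp.

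A narrow form of peak made up part of the isolated set. The peak caller used a fragment length of 216 bp, and 39 isolated peaks (12%, Wilson 95% interval 8.90 to 16) were narrower than 432 bp, which is 2 fragment lengths. In such a peak the fragments of all tags overlap at a common position, if the peak spans those fragments. This class was defined after the values had been seen. Of all RARβ peaks 5.5% were this narrow. Among the other distance classes the shares were 8.13% at 5 to 100 kb, 7.36% within 5 kb and 3.95% in overlapping peaks. Small peaks are narrower, so the shares were also taken at matched tag numbers. With 7 tags, 19 of 93 isolated peaks (20.4%, Wilson 95% interval 13.5 to 29.7) were this narrow, against 16.9% at 5 to 100 kb and 11.2% of overlapping peaks. With 9 to 14 tags it was 13 of 118 (11.0%, Wilson 95% interval 6.55 to 17.9), against 3.94% and 2.22%. With 8 tags the shares were 8.20%, 9.29% and 7.23%, within the interval of the isolated peaks (3.55 to 17.8). Whether these shares would differ in another library was not tested.

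All 444 narrow peaks of the RARβ list had their summit within 1 bp of the middle of the peak. Of the 7631 wider peaks, 31 did. The width limit itself puts the summit of a narrow peak near its middle, so this is no separate result. The narrow isolated peaks had 7 to 22 tags, with a median of 8, and were 241 to 430 bp wide. A fold enrichment of at least 50 was found in 3 of the 39 (7.69%, Wilson interval 2.65 to 20.3), a limit chosen after the values were seen. It was reached by 20 of the 325 isolated peaks (6.15%) and by 291 of the 8075 RARβ peaks (3.6%). Both shares lay within the interval of the narrow isolated peaks. Those 3 narrow peaks had 14 tags on chromosome 1 (143728079 to 143728450), 14 on chromosome 17 (65588590 to 65588982) and 13 on chromosome 7 (103161263 to 103161684). Their fold enrichments were 53.64, 53.64 and 50.3. The first of these lay 1152377 bp from H3K4me3. The other 2 were 130464 and 106451 bp away.

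For part of the peaks the height of the pileup can be read from the fold enrichment. Where the local background was no higher than the genome-wide level of 0.258 tags per fragment, 1 tag in the pileup is worth a fold of 3.87, and the fold is a whole multiple of that step. This was so, within 0.01, for 143 isolated peaks (44.0%, Wilson 95% interval 38.7 to 49.4), for 38.3% of the peaks at 5 to 100 kb, for 26.4% of overlapping peaks and for 30.7% of all RARβ peaks. In those 143 peaks a median of 6 tags stacked at the summit, and a median of 75% of the tags of a peak did so (quartiles 66.67 and 85.71). The same share had a median of 71.43% at 5 to 100 kb and 66.67% in overlapping peaks. The median number of tags at the summit was 6 in every distance class. These medians were not matched on tag number, and overlapping peaks had more tags. Among the isolated peaks the median share was 75% under 15 tags and 65.38% with 15 or more. The share was 100% in all 11 narrow isolated peaks of this kind and in all 132 of the whole list, as their width implies. The share of the tags at the summit thus ran from loose to fully stacked within the isolated set.

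The stronger isolated peaks were few and had no single form. Of the 325, 53 had 15 or more tags (16.3%, Wilson 95% interval 12.7 to 20.7). The background over all RARβ peaks was 22.7%. Shares of 16% at 5 to 100 kb, 16.8% within 5 kb and 26.2% in overlapping peaks stand beside it. The limit cut through a continuous range, with 10 isolated peaks at 14 tags and 5 at 15 tags. Within the 53, there were 30 with 15 to 19 tags, 16 with 20 to 29, 4 with 30 to 60 and 3 with more. They were wider than the rest, with a median of 904 bp against 556 bp in the 272 with fewer tags, and their median fold enrichment was 35.76 against 22.99. Tags enter all of these measures, so the differences between strong and weak peaks are descriptions. A width under 432 bp was found in 2 of the 53.

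There were 7 isolated peaks with 30 tags or more, and 6 of them lay on chromosome 2. In the whole RARβ list, 269 peaks had 30 tags or more, and 31 of these were on chromosome 2. Below the 3 with most tags, which are described further down, the strongest lay on chromosome 2 at 107358701 to 107360535. It had 60 tags (exact Poisson 95% interval 45.8 to 77.2) over 1835 bp, a fold enrichment of 64.68 and a distance of 213018 bp. Its summit was 488 bp from its lower edge, at 26.6% of its width. How its tags were spread around the summit was not examined. The authors' empirical false discovery rate (FDR) of this peak was 5.0%, the highest among the isolated peaks, whose median was 0.09%. More tags did not go with a lower FDR here. Its median was 0.13% in isolated peaks with 15 or more tags and 0.09% in those with fewer, where it reached at most 0.32%.

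Also on chromosome 2, a pair of strong peaks showed how shape can differ at similar tag numbers. The peak at 7451820 to 7453219 had 42 tags (exact Poisson 95% interval 30.3 to 56.8) over 1400 bp and a fold enrichment of 46.43, so 12 tags, 28.6% of them, stacked at its summit. The peak at 7920587 to 7921649 had 33 tags (22.7 to 46.3) over 1063 bp and a fold enrichment of 92.86, the highest of the isolated set. There 24 tags, 72.7%, stacked at the summit. The tags of the first were spread along the peak, and most of those of the second stacked at 1 position. Both were wider than 1 kb. They lay 109268 and 172057 bp from the nearest H3K4me3 peak.

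Other strong peaks had high fold enrichments as well. The one on chromosome 2 at 95206536 to 95207540 had 33 tags and a fold enrichment of 91.95. On chromosome 14 at 85798094 to 85799037, 713921 bp from H3K4me3, 21 of 29 tags stacked at the summit at a fold enrichment of 81.25. On chromosome 12 at 97161347 to 97162398, 20 of 29 tags did so at 77.38. Those were the third and the fourth by fold enrichment. Peaks of 24 tags on chromosome 16 (7892629 to 7893505) and of 26 tags on chromosome 9 (73588922 to 73590001) had fold enrichments of 69.64 and 65.77, and 75% and 65.4% of their tags at the summit. The other peaks among the 10 with the highest fold enrichment were on chromosomes 3, 13 and 1, with 27, 27 and 19 tags and fold enrichments of 61.91, 61.3 and 58.04. The 10 by tags and the 10 by fold enrichment shared 5 peaks. High tags did not always come with a high fold: the peak on chromosome 10 at 89691669 to 89693100, among the 5 widest at 1432 bp, had 24 tags and a fold enrichment of 10.57.

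**Figure D2:**
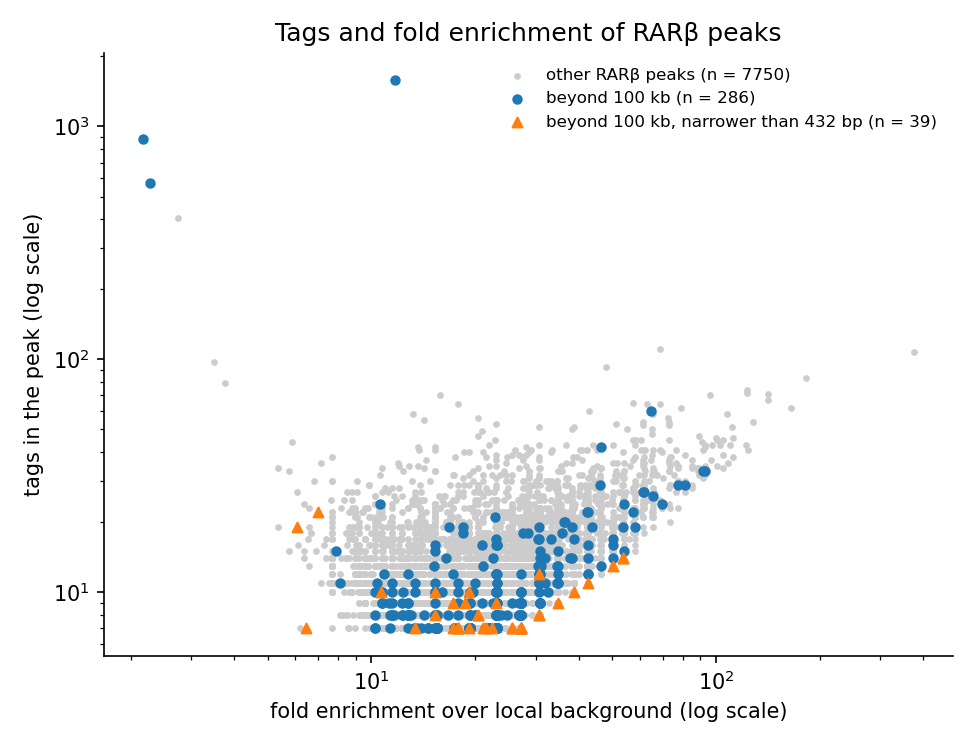
Each point is 1 RARβ peak, with the authors' fold enrichment on the x axis and its tags on the y axis, both on log scales and with colours as in the plot of tags and width. The isolated peaks with 29 to 60 tags lie at fold enrichments of 45.98 to 92.86, while the 3 with 573 to 1577 tags lie at 2.17 to 11.7.

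The 3 isolated peaks with most tags stood apart from the other isolated peaks. They held 3032 of the 6503 tags in isolated peaks (46.6%), and the other 322 peaks held 3471. On chromosome 17 at 39979774 to 39985941, 1577 tags (exact Poisson 95% interval 1500 to 1657) were spread over 6168 bp, the widest isolated peak, at a fold enrichment of 11.7. On chromosome 2, 882 tags lay at 98506225 to 98507809 and 573 tags at 98502224 to 98503302, at fold enrichments of 2.17 and 2.28. These tags and widths give 256, 556 and 531 tags per kb. The highest value among the other 322 isolated peaks was 53.0. Such values were not confined to the isolated set. At 5 to 100 kb the highest values were 626 tags per kb and 405 tags, and the lowest fold enrichment was 2.74. A fold enrichment under 3 was found in 3 RARβ peaks, 2 of them isolated. Of all RARβ peaks 6 had 100 or more tags, and these are 3 of them.

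A low fold beside so many tags means that the local background taken from the control library was high as well. The pileup at a summit cannot be lower than the mean coverage by the tags of the peak, if their fragments lie within the peak. For the pair on chromosome 2 the background was then at least 55.4 and 50.3 tags per fragment, which is 214 and 195 times the genome-wide level. For the peak on chromosome 17 it was at least 4.72 tags per fragment, 18.3 times that level. As background, sequences present in more copies than an assembly holds are known to gather tags in control libraries as well. Whether these peaks lie in such sequence was not tested. Without the 3 peaks, the median tag number remained at 9 and the share with 15 or more tags was 15.5%.

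Among the narrow peaks the local background was taken as tags divided by fold, on the assumption that all tags stack at the summit. The width limit implies this where a peak spans the fragments of its tags. This background was at the genome-wide level in 11 of the 39 narrow isolated peaks and in 132 of all 444 narrow RARβ peaks. Its median was 1.28 times that level in the narrow isolated peaks and 1.17 times over all narrow peaks. It was 1.11 times at 5 to 100 kb, 1.04 times within 5 kb and 1.22 times in overlapping ones. Over 2 times that level were 9 of the 39, and 81 of the 444. The other classes had 22 of 144 at 5 to 100 kb, 5 of 54 within 5 kb and 45 of 207 in overlapping peaks. The highest values were 12.2 times, on chromosome 1 at 124253582 to 124253996, and 12.1 times, on chromosome X at 74255298 to 74255715. Those peaks had 22 and 19 tags over 415 and 418 bp, and fold enrichments of 7.0 and 6.09. They were the only 2 of the 444 narrow RARβ peaks above 10 times. They were also the 2 narrow ones among the 53 with 15 or more tags, and came next after the 3 largest peaks by tags per kb, at 53.0 and 45.5.

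**Figure D3:**
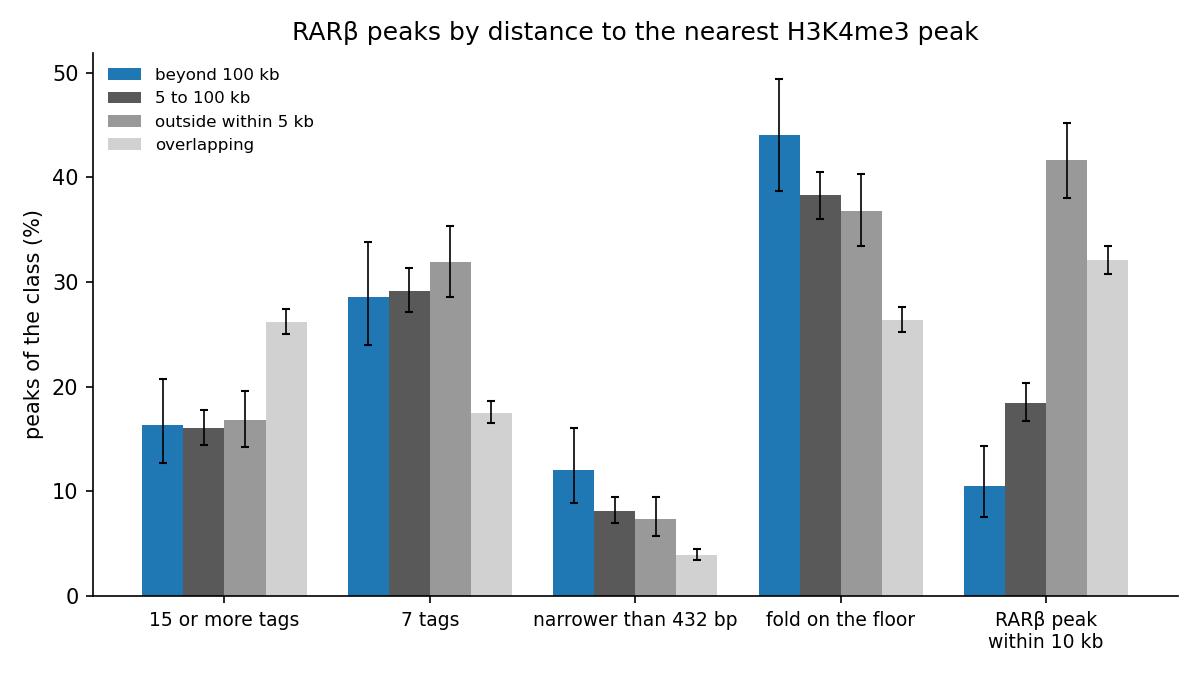
Bars give the percentage of the peaks of each distance class that have a property, with Wilson 95% intervals as error bars. The isolated peaks (blue) stand at 16.3% for 15 or more tags, 28.6% for 7 tags, 12% for a width under 432 bp, 44.0% for a fold on the genome-wide floor, and 10.5% for another RARβ peak within 10 kb.

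Isolated peaks also recurred in the same H3K4me3-poor stretches. A stretch is here the sequence between 2 consecutive H3K4me3 peaks. There were 2236 stretches longer than 200 kb, which alone can hold an isolated peak. No isolated peak was found in 1990 of these. A single one was found in 190, a pair in 40, a set of 3 in 13, and 4 or more in 3 stretches. In all, 135 of the 325 isolated peaks (41.5%, Wilson 95% interval 36.3 to 47.0) shared a stretch with another. Neighbouring isolated peaks of a stretch were separated by a median of 84.83 kb, with quartiles of 12.35 and 255.9 kb. Of 79 such gaps, 18 were shorter than 10 kb. Of all isolated peaks, 10.5% had any RARβ peak within 10 kb, and the background over all RARβ peaks was 29.1%. No chance value for the recurrence was computed.

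The richest stretch held 8 isolated peaks. It lay on chromosome 2 at 7748531 to 8559401, was 810.9 kb long, and contained the peak with the highest fold enrichment described above. Around that 33-tag peak were 5 smaller ones, at 7854949 to 7855433 with 8 tags, 7913237 to 7913563 with 7, 7934304 to 7935330 with 13, 7949848 to 7950419 with 7 and 7950757 to 7951379 with 9. A separate pair with 7 tags each lay at 8264813 to 8265338 and 8266376 to 8266785. A ninth RARβ peak, with 11 tags, was only 79019 bp from H3K4me3 and is not counted. The H3K4me3 peaks that bound this stretch were weak, with 42 and 108 tags, and had FDRs of 12.16% and 18.19%.

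The other named stretches differed in length and spacing. On chromosome 9 a stretch of 282.6 kb at 48865095 to 49147694 held 4 isolated peaks within 47.4 kb, the strongest with 17 tags at 49003130 to 49004047. It was bounded by strong H3K4me3 peaks with 1070 and 2234 tags. On chromosome 12 a stretch at 94390863 to 96929156 also held 4, but they had only 7 or 8 tags and were spread over 1326 kb. Of the 13 stretches that held 3, the shortest were 118544315 to 118833940 on chromosome 6 and 117461703 to 117768381 on chromosome 9. Their isolated peaks had 15, 8 and 17 tags, and 10, 22 and 11 tags, and lay within 32.9 and 63.3 kb. Among the peaks that shared a stretch, 28 of 135 had 15 or more tags (20.7%, Wilson 95% interval 14.8 to 28.3). Among those alone, 25 of 190 did (13.2%, 9.07 to 18.7), so the intervals overlap.

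**Figure D4:**
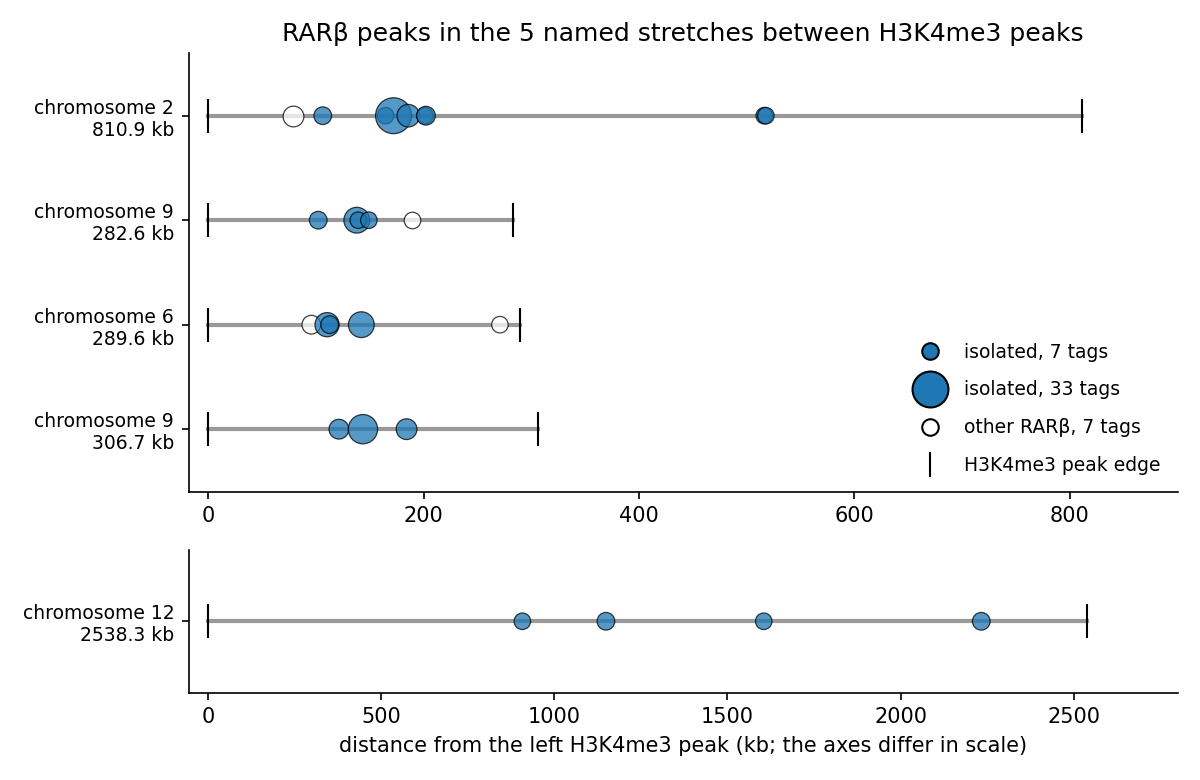
Each line is a stretch between H3K4me3 peaks (black ticks), with distance from its left end in kb on the x axis, and circles are RARβ peaks with an area proportional to their tags; white circles lie within 100 kb of H3K4me3. The chromosome 2 stretch holds 8 isolated peaks, 6 of them between 106.4 and 202.2 kb, and the 4 on chromosome 12 are spread over 1326 kb.

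The sequence farther than 100 kb from H3K4me3 was long and held few peaks. It came to 812.6 Mb between the first and last H3K4me3 peaks of the chromosomes, parts where no read can be placed included. Isolated peaks lay in it at 0.400 per Mb (exact Poisson 95% interval 0.358 to 0.446). Sequence at 5 to 100 kb held 1.29 RARβ peaks per Mb, sequence outside H3K4me3 peaks but within 5 kb of one held 2.45, and sequence inside them 64.4. Within the eligible sequence the density was lower in long stretches. It was 0.717 per Mb in stretches of 200 to 300 kb (0.469 to 1.05), 0.746 in those of 300 to 500 kb, 0.508 in those of 500 to 1000 kb and 0.227 in longer ones (0.185 to 0.276).

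Isolated peaks were found on every autosome and on X, in numbers from 3 on chromosome 19 to 29 on chromosome 1 and 28 on chromosome 2. None of the 3 RARβ peaks on Y was isolated, but Y had only 0.0322 Mb of eligible sequence, so almost none could be. The density ran from 0.243 per eligible Mb on chromosome 19 (exact Poisson 95% interval 0.0501 to 0.710) to 0.735 on chromosome 9 (0.449 to 1.14), so most chromosome intervals overlap. On X, present in 1 copy in male mice, 9 isolated peaks lay in 91.96 eligible Mb, which is 0.0979 per Mb (0.0447 to 0.186). The autosomes together had 0.439 (0.392 to 0.490). Seen as a share of the RARβ peaks of the chromosome, the order was the other way round. Isolated peaks were 9 of 52 on X (17.3%) and 316 of 8020 on autosomes (3.94%), and X had the most eligible sequence of all chromosomes. The other RARβ peaks were also few on X, with 43 beside 770 H3K4me3 peaks, against 7704 beside 35195 on autosomes. Low numbers on X were thus not particular to the isolated peaks, and whether copy number bears on them was not tested. Of the 9 isolated peaks on X, 1 had 15 or more tags. The 53 stronger peaks lay on 19 chromosomes, with 8 on chromosome 1, 6 on chromosome 2 and none on chromosome 11.

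**Figure D5:**
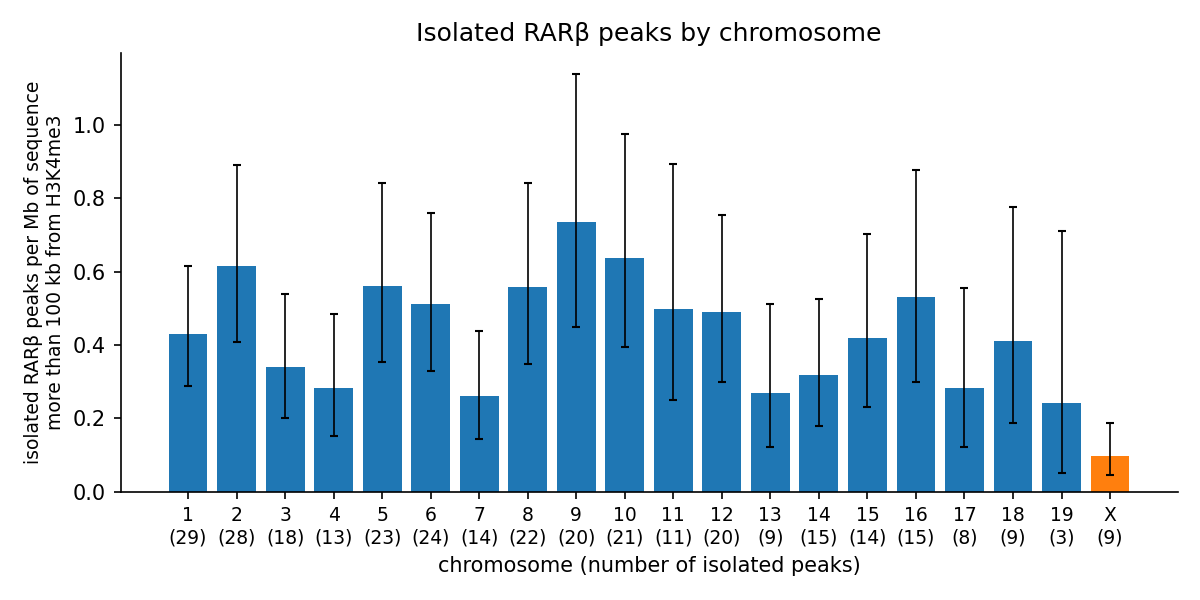
Bars give the number of isolated RARβ peaks per Mb of sequence farther than 100 kb from H3K4me3 on each chromosome, with exact Poisson 95% intervals as error bars and the number of isolated peaks in brackets under the chromosome. X (orange) stands at 0.0979 and the autosomes between 0.243 and 0.735.

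How isolated a peak is depends on which H3K4me3 peaks are kept. The nearest H3K4me3 peak of an isolated RARβ peak had a median of 121 tags, and 28.6% of them (Wilson 95% interval 24.0 to 33.8) had an FDR of at most 5%. For RARβ peaks at 5 to 100 kb the share was 26.5%, and over all H3K4me3 peaks it was 35.0%. For overlapping RARβ peaks it was 62.2%, although their H3K4me3 peaks had a median of 1168 tags. An FDR above 5% thus does not by itself mark a weak H3K4me3 peak. With H3K4me3 peaks kept only up to an FDR of 5%, 1539 RARβ peaks would lie beyond 100 kb. Their median tag number was again 9.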

How the data were processed

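Per the submitters' processing notes, CASAVA 1.8.2, Bowtie and MACS 1.4.2 were used with build mm9. Per the file headers, MACS called peaks on each library alone, against the same control library of 3703580 filtered tags, at a p cutoff of 1e-05, keeping at most 1 tag per position, so 55.2% of the RARβ tags were removed. The antibody of the control is not given in the sources used here. Tag counts were deposited as whole numbers per peak, and fold enrichment as a ratio. The deposited score is −10 times log10 of the p-value, with its column name lost. The authors' FDR is in percent.

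Distances, tags per kb, stretches and eligible lengths were computed in Python 3.11.15 (numpy 2.4.6, pandas 2.3.3, scipy 1.17.1, matplotlib 3.10.9) and tested on simulated positions. Intervals are Wilson for shares, exact Poisson for numbers and tags, and order-statistic for medians. With 1 library per antibody no test was made.

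The isolated peaks, measures and alternatives were chosen with earlier results of these data known. Named were the 10 with most tags, the 10 with the highest fold, the 5 widest, the 5 with most tags per kb, the 5 farthest, the 5 on either side of the limit, and the 5 stretches with most isolated peaks, the shorter first at ties. Motifs and nearest genes were planned but not run, because no sequence or annotation of mm9 was used here. The effect of the alternatives is given in the closing section.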

Additional observations from a re-analysis of the deposited data

How the results depend on the processing

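Each of the 8 results was recomputed with 1 choice changed at a time, in 57 ways, 16 of them added after the values were seen, and 33 stayed within 1.5 times the number of peaks or within the 95% interval of the value reported. With a limit of 50 kb there were 570 isolated peaks at 0.495 per eligible Mb, and with 200 kb 157 at 0.298, with a median fold of 21.46. When H3K4me3 peaks were kept only up to an FDR of 5% there were 1539 isolated peaks at 1.115 per Mb, with medians of 626 bp and 15.15 tags per kb, and 70.05% shared a stretch. With RARβ peaks of a score of at least 100 there were 86 at 0.106 per Mb, with medians of 15 tags, 776.5 bp, 22.32 tags per kb and a fold of 34.65. Of those, 52.33% had 15 or more tags and 29.07% shared a stretch. Tags enter the score, so that limit itself favours peaks with more tags. The median score was 159.5 in isolated peaks with 15 or more tags and 69.19 in those with fewer. Fewer peaks in the same stretches leave fewer possible partners, so the 29.07% cannot be set directly against the share of all isolated peaks. The 70.05% likewise came from more peaks, in stretches bounded by fewer H3K4me3 peaks. Whether anything else changed these shares was not tested. A minimum of 10 tags was met by 41.23% and one of 20 tags by 7.08%. Another isolated peak within 100 kb was found for 23.69%. Without peaks narrower than 432 bp, chosen after seeing the data, the medians were 617 bp and 15.12 tags per kb, at 0.352 per Mb. The depth of the RARβ library hides sites under 7 tags. No paired analysis was possible because there was 1 library per antibody.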
